A study of Mus musculus with 9 samples.

Results

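Tristetraprolin (ZFP36) and its relatives, and the BTG/TOB proteins, are 8 mouse genes whose products shorten the life of messenger RNA. Zfp36, Zfp36l1 and Zfp36l2 encode zinc finger proteins that bind AU-rich elements in mRNA, and Btg1, Btg2, Btg3, Tob1 and Tob2 encode antiproliferative proteins that bind deadenylases of the CCR4-NOT complex. Members were all probe sets that the platform annotation gives to 1 symbol only, that symbol being 1 of the 8 genes. The rule found 18 probe sets of 7 genes among 45037 probe sets in all. They were 1 for Zfp36, 2 for Zfp36l1, 3 for Zfp36l2, 3 for Btg1, 2 for Btg2, 2 for Tob1 and 5 for Tob2. The annotation gives the 1 probe set of Btg3 a further symbol, so Btg3 has no values here. Of the 18, 16 passed the filter on low values. The dim probe sets of Zfp36l2 (1439054_at, 3.65 to 3.71) and Tob1 (1440844_at, 2.91 to 2.96) did not pass it.

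RNA came from NIH 3T3 cells, an established line of mouse embryonic fibroblasts, on 9 arrays in 3 groups of 3. All cells were serum-starved, and all received cycloheximide, which blocks translation, at 3 µg/ml for 2 h. The controls received no actin drug. The second group received cytochalasin D at 2 µM for 90 min. The last group, here the double-drug group, received latrunculin B (5 µM) and cytochalasin D (2 µM) for 90 min by its agent label, which was used although the sample titles mention only latrunculin B. Each condition has biological replicates numbered 1, 3 and 7, independent of each other by the series design. Because every group had cycloheximide, no array shows these transcripts with translation running, and no protein was measured.

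Monomeric actin holds the coactivator MRTF. Cytochalasin D, which also blocks filament ends, frees MRTF from the monomers, and latrunculin B sequesters monomers in a form that still holds it. Free MRTF works with serum response factor (SRF) at promoters that carry a CArG box, a short AT-rich element. Zfp36 and Btg2 are textbook immediate-early genes, switched on by growth factors without new protein, and the ZFP36 proteins bring the CCR4-NOT complex to the mRNAs they bind, so that the poly(A) tail is removed and the mRNA is degraded. The BTG/TOB proteins bind the deadenylase subunits CNOT7 and CNOT8 of the same complex.

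Promoters of Zfp36 and Btg2, the members with the largest rise over control, are shown to place the CArG box and the cyclic AMP response element. The 250 bases before the start of transcription were taken from RefSeq (GRCm38.p6), 5′ to 3′ on the gene's strand, and capitals mark the motif matches. Zfp36 lies on the minus strand at chr7:28379229-28379478 and its match is a CArG box. Btg2 lies on the minus strand at chr1:134079156-134079405, and its capitals are a pair of overlapping TGACG matches, 1 on each strand.
Zfp36: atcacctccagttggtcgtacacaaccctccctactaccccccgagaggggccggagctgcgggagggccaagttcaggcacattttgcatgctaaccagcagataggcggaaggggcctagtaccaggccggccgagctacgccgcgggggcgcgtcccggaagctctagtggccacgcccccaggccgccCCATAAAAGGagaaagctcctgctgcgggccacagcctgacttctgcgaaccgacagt
Btg2: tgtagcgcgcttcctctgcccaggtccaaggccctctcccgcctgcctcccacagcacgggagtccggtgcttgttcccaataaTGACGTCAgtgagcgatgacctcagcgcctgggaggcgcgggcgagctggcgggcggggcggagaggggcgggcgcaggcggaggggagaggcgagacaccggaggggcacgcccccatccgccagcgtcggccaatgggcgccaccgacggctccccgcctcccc

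The CArG box of Zfp36 lay 58 to 49 bases before the start, and its letters, CCATAAAAGG, were those of a box of Srf 62 to 53 bases before its start. Srf, the gene of SRF itself, held another box 82 to 73 bases before its start. CArG boxes were searched as CC, 6 letters of A or T, and GG, a pattern that reads alike on both strands, and 1.47% of the 32851 promoter windows of the table held one. Of the members, 7 had a window in the table, Btg3 with 2 starts, and of these Zfp36 alone held a CArG box. Zfp36l2 had no window and was not searched. The TGACG core of the cyclic AMP response element (both strands, 17.8% of windows) was found in Btg2 at 166 and 163 bases before the start. It was also found in Btg1 at 187 and 103, and in Tob1 at 96. The AP-1 motif TGANTCA (both strands, 6.75% of windows) was found in Zfp36l1, 129 bases before the start. The ETS motif GGAAGT (both strands, 19.7% of windows) was found in Btg1 and Tob2. A match is a description of letters and not a site of binding, and other positions of these genes were not searched.

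**Figure D1:**
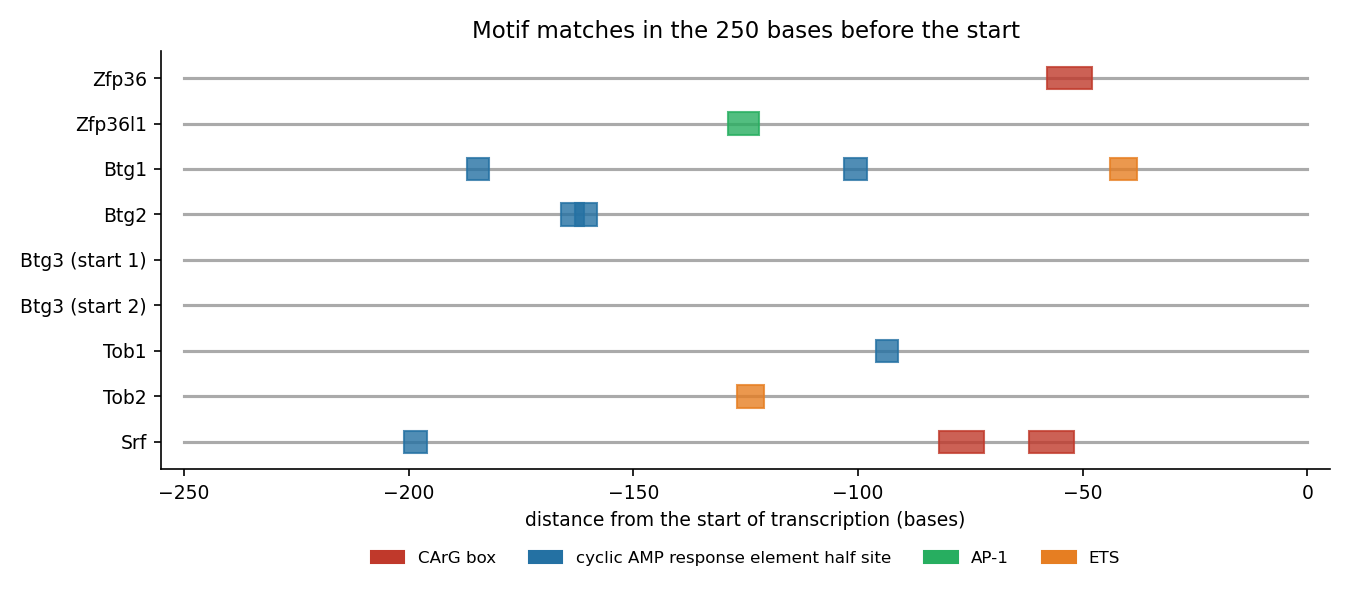
Matches of 4 motifs in the 250 bases before each start of transcription, for the 7 members in the promoter table (Btg3 with 2 starts) and for Srf. The horizontal axis is the distance from the start in bases, and coloured boxes are matches on either strand, drawn to scale. Among these 7 members only Zfp36 carries a CArG box, 58 to 49 bases before the start. Zfp36l2 has no window and is not drawn.

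Values are the authors' normalized intensities on a linear scale, and differences are given on the scale of log2(intensity + 16), which makes changes of dim probe sets smaller. Array medians lay between 7.57 and 7.84, and 27034 probe sets were tested in limma, with p-values adjusted over all of them by Benjamini-Hochberg. A probe set that passed at an adjusted p under 0.05 is called. All 10 fibroblast markers were above the filter, with summed intensities between 136092 and 145899 on every array. Of 7 macrophage and leukocyte markers 4 were above it, with sums of 279 to 440 and Cd14 the highest at 218. Epithelial (2 of 5 above it), skeletal muscle (1 of 4) and endothelial markers (0 of 4) had sums of 36.2 to 41.1, 21.5 to 23.2 and 18.3 to 19.0, and no marker of any list was called in any comparison. Srf, the check of the treatments, had 187 ± 30.9 in controls, 1475 ± 311 with cytochalasin D and 827 ± 164 in the double-drug group (SD, n = 3, probe set 1418255_s_at). Its probe set 1418256_at had 29.3 ± 3.27, 256 ± 58.7 and 99.7 ± 22.0 in the same order (SD, n = 3). Both were called with cytochalasin D (limma adjusted p = 0.00192 and 0.00210). With both drugs 1418255_s_at was called and 1418256_at was not (limma adjusted p = 0.0393 and 0.0974).

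The first comparison asks how the decay genes responded to cytochalasin D. Zfp36 and Btg2 rose about as far as each other, while no other member passed the test. Of 16 tested member probe sets, 2 were called higher, 0 were called lower and 14 were not called. Among all probe sets tested 1.56% were called, 1.14% higher and 0.422% lower. The median log2 change of the members was -0.03, against -0.00098 over all probe sets tested. At an unadjusted p under 0.05 in limma there were 7 of 16 members, where 10.2% of all probe sets were. In such bulk RNA, fewer cells with a transcript and less of it per cell cannot be told apart.

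Zfp36, the founding AU-rich element binding protein, had intensities of 285, 288 and 389 in controls 1, 3 and 7. It had 1826, 1913 and 2239 with cytochalasin D, and 1272, 1208 and 1503 in the double-drug group. The lowest cytochalasin D value was above the highest double-drug value, which in turn was above every control, so the 3 groups did not overlap. The mean rose from 320 ± 59.3 to 1993 ± 218 (SD, n = 3). The ratio was 6.22 and the log2 change 2.59 (SE 0.15, 95% interval 2.24 to 2.93, limma adjusted p = 0.000993). Same-numbered cultures gave ratios of 6.41, 6.65 and 5.76. The call held with any single array left out (adjusted p 0.00291 to 0.00922).

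Btg2, a p53 target and immediate-early gene that slows the cell cycle, has 2 probe sets. At 1416250_at the controls had 737, 353 and 467 for numbers 1, 3 and 7. The cytochalasin D values were 3161, 3032 and 3127, and the double-drug values 2663, 1360 and 2186. With cytochalasin D the 3 cultures had nearly the same intensity, with a coefficient of variation of 2.16% against 38.0% in controls and 31.9% in the double-drug group. The mean rose from 519 ± 197 to 3106 ± 67.0 (SD, n = 3), a ratio of 5.98 and a log2 change of 2.61 (SE 0.32, 95% interval 1.85 to 3.36, adjusted p = 0.0116 in limma). Leaving out control culture 7 or cytochalasin D culture 3 ended this call in limma (adjusted p = 0.0581 and 0.0591).

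The other Btg2 probe set, 1448272_at, had 217, 298 and 551 in controls 1, 3 and 7. It had 1271, 1312 and 3542 with cytochalasin D, and 1200, 1245 and 2667 in the double-drug group. All 6 drug-treated values were above all 3 controls, and number 7 was the highest in every group. The spread was wide, with a coefficient of variation of 63.6% with cytochalasin D. The log2 change with cytochalasin D was 2.40 (SE 0.55, 95% interval 1.10 to 3.70), which did not pass the test (adjusted p = 0.124 in limma). Its ratios by number were 5.86, 4.41 and 6.43. The 2 probe sets of Btg2 gave changes of 2.61 and 2.40, and differed in which cultures were high: number 7 stood out at 1448272_at and not at 1416250_at.

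**Figure D2:**
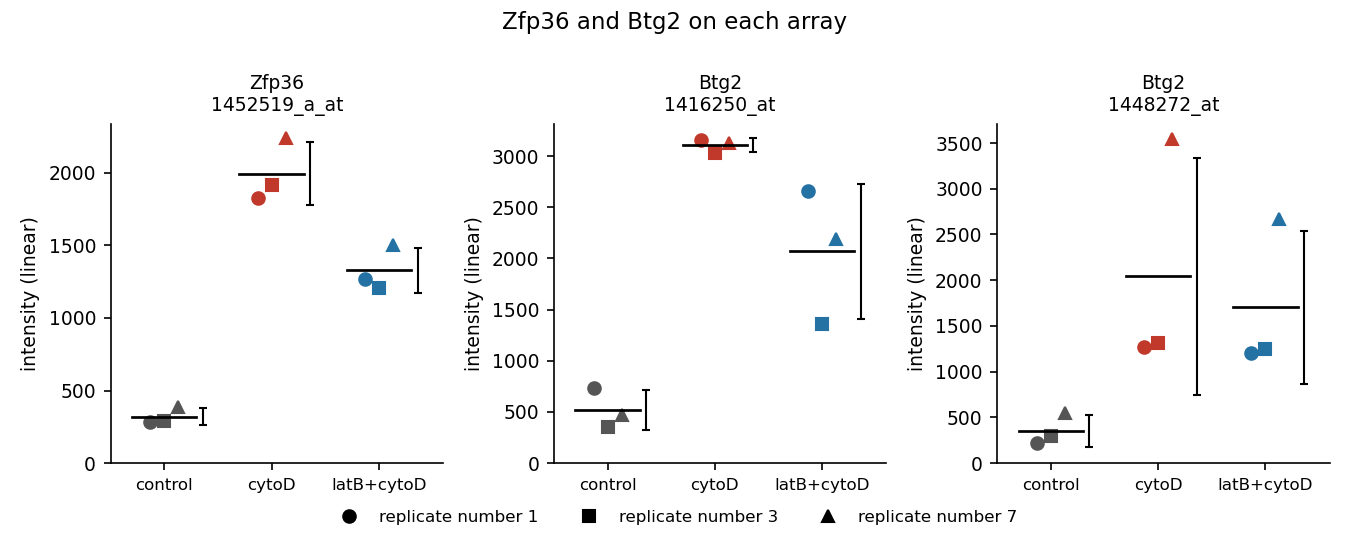
Linear intensity of Zfp36 and of the 2 Btg2 probe sets on each of the 9 arrays (vertical axes start at 0). Symbols are replicate numbers, horizontal lines group means and vertical bars ± 1 SD over 3 arrays. All drug-treated values lie above all controls. For Zfp36, cytochalasin D (1826 to 2239) also lies above the double-drug group (1208 to 1503).

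Both relatives of Zfp36 had lower values with cytochalasin D. Zfp36l1, which like Zfp36 binds AU-rich elements, had 3576, 4298 and 4882 in controls 1, 3 and 7 at its brighter probe set 1450644_at. The cytochalasin D values were 2401, 3069 and 3425, and the double-drug values 3360, 4060 and 4179. Every cytochalasin D value was below every control, while the double-drug values overlapped the controls. The mean was 30.3% below control, a log2 change of -0.52 (SE 0.17, 95% interval -0.93 to -0.12), which did not pass the test (limma adjusted p = 0.322). Within each number the cytochalasin D culture was below its control, with ratios of 0.671, 0.714 and 0.701.

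The dimmer Zfp36l1 probe set, 1422528_a_at, had 524, 388 and 413 in controls 1, 3 and 7. With cytochalasin D it had 228, 283 and 295, and in the double-drug group 438, 321 and 357. Here the cytochalasin D values were below all 6 other arrays, while at 1450644_at cytochalasin D replicate 7 was above double-drug replicate 1. The log2 change was -0.68 (SE 0.16, 95% interval -1.06 to -0.30, limma adjusted p = 0.140), not called. Number 1 gave a ratio of 0.436 here, against 0.731 and 0.715 for numbers 3 and 7, so this culture had the largest difference.

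Zfp36l2, the other AU-rich element binding relative, had 4432, 5596 and 5418 in controls 1, 3 and 7 at 1437626_at. With cytochalasin D it had 2602, 3497 and 3931, and with both drugs 3839, 4377 and 4472. As for Zfp36l1, the cytochalasin D values lay below all controls, and the double-drug values were between the group means of control and cytochalasin D. The log2 change with cytochalasin D was -0.63 (SE 0.17, 95% interval -1.03 to -0.24, limma adjusted p = 0.186), not called, with a mean 35.1% below control. By number, the ratios were 0.587, 0.625 and 0.726, each below its own control. The probe set 1451034_at of Zfp36l2 stayed between 14.2 and 18.2 on all arrays.

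Of the antiproliferative genes other than Btg2, Btg1 is the closest relative of it. At 1437455_a_at, Btg1 had 7145, 7888 and 7448 in controls 1, 3 and 7. It had 5024, 6485 and 6563 with cytochalasin D and 6415, 6839 and 6972 in the double-drug group. All 6 drug-treated values were below all 3 controls, by small steps: the mean was 19.6% below control with cytochalasin D and 10.02% below in the double-drug group. Neither log2 change passed the test in limma (-0.32, SE 0.11, adjusted p = 0.321, and -0.15, SE 0.11, adjusted p = 0.9998). The probe set 1426083_a_at of the same gene ran from 5359 to 6896, its groups overlapped, and its change with cytochalasin D was -0.07 (95% interval -0.29 to 0.15). The 2 bright Btg1 probe sets thus differed in whether the groups overlapped. The dim 1442018_at lay between 15.9 and 25.7.

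Tob1, which links the CCR4-NOT deadenylases to poly(A)-binding protein, had 2675, 3072 and 3644 in controls 1, 3 and 7 at 1423176_at. With cytochalasin D it had 1616, 2227 and 2883, and in the double-drug group 2883, 2883 and 3510. The value 2883 stands on 3 arrays, since cytochalasin D replicate 7 holds it too. Cytochalasin D replicate 7 overlapped the controls, and within each number the cytochalasin D culture was below its control, with ratios of 0.604, 0.725 and 0.791. The log2 change was -0.51 (SE 0.22, 95% interval -1.03 to 0.02, limma adjusted p = 0.513), not called. The double-drug change was -0.01 (95% interval -0.54 to 0.51).

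Tob2, the paralogue of Tob1, has 5 tested probe sets, and none was called in any comparison. At the brightest, 1448667_x_at, controls 1, 3 and 7 had 1117, 1305 and 1370. The cytochalasin D values were 899, 1208 and 1384, and the double-drug values 1332, 1463 and 1697. The groups overlapped in every comparison, although the double-drug culture was above its same-numbered control for all 3 numbers. The change was -0.13 (95% interval -0.54 to 0.28) with cytochalasin D and 0.24 (95% interval -0.17 to 0.65) with both drugs. The names of this probe set and of 1448666_s_at mark probes that can also bind transcripts of other genes, and 1448666_s_at ran from 897 to 1613. The remaining 3 lay between 37.6 and 49.1 (1417309_at), 53.4 and 86.1 (1417310_at), and 5.53 and 9.21 (1431776_at). At 1417310_at the controls were 65.7, 65.5 and 65.7, while cytochalasin D replicate 3 and double-drug replicate 3 had 86.1 and 84.9.

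**Figure D3:**
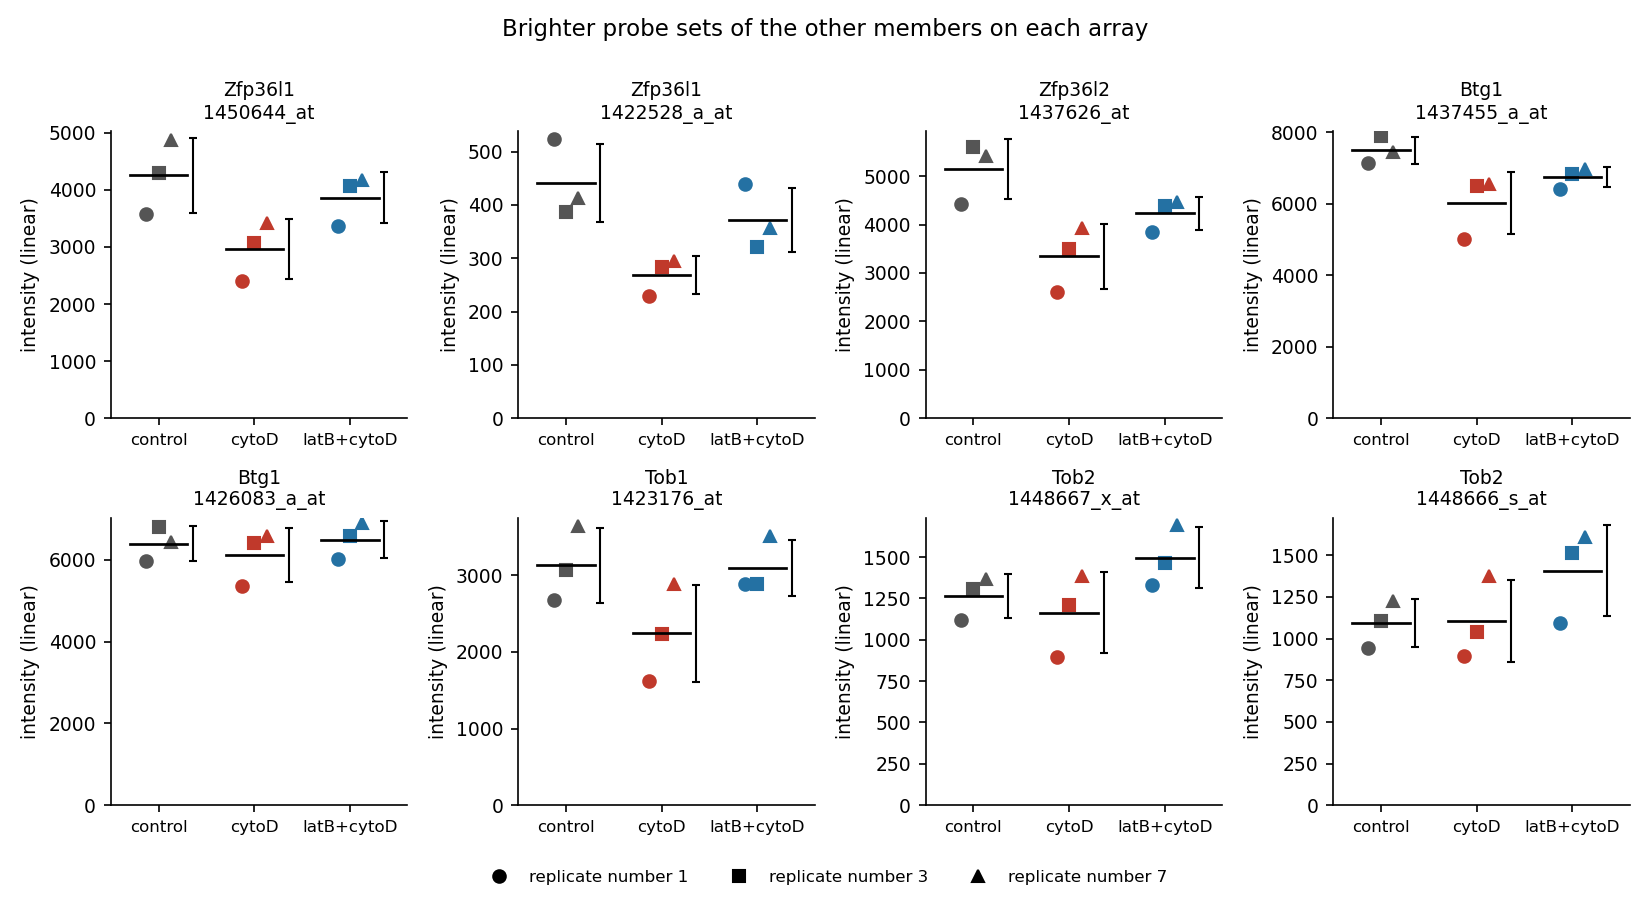
Linear intensity of the 8 brighter probe sets of Zfp36l1, Zfp36l2, Tob1, Btg1 and Tob2 on each array (vertical axes start at 0). Symbols are replicate numbers, horizontal lines group means and vertical bars ± 1 SD over 3 arrays. The cytochalasin D values of Zfp36l1 and Zfp36l2 lie below all controls, and those of Tob2 overlap them.

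Counted over the members, 3 probe sets had all cytochalasin D values above all controls (Zfp36 and both of Btg2) and 4 had them all below (both of Zfp36l1, Zfp36l2 1437626_at and Btg1 1437455_a_at). Among all probe sets tested, group values did not overlap for 5.05% in the higher and 6.45% in the lower direction. In the other 9 the groups overlapped. Of the 16 changes 7 were above 0 and 9 below. The 4 lower ones lay between -0.68 and -0.32, and the 3 higher ones between 2.40 and 2.61.

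The second comparison asks how the members stood with latrunculin B added to cytochalasin D. Zfp36 was the only member called, with a mean of 1327 ± 155 (SD, n = 3), a ratio of 4.14 and a log2 change of 2.01 (SE 0.15, 95% interval 1.66 to 2.35, limma adjusted p = 0.0172). It was thus 1 of 16 called, with 15 not called, where 0.111% of all probe sets were called. The median member change was 0.02 and that of all probe sets 0.0032. At an unadjusted p under 0.05 in limma there were 3 of 16 members, where 5.27% of all probe sets were. The Zfp36 change ran from 1.86 to 2.15 over all alternatives, and its call ended in limma when certain arrays were left out. These were control 3 (adjusted p = 0.0801), the cytochalasin D cultures 1 (0.0580) and 3 (0.0661), and the double-drug cultures 1 (0.0819), 3 (0.0616) and 7 (0.121).

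Btg2 was high in the double-drug group as well, and neither of its probe sets passed the test. Both had all double-drug values above all controls, as did Zfp36, so that 3 member probe sets were higher without overlap, where 4.09% of all probe sets were. At 1416250_at the mean was 2069 ± 659 (SD, n = 3), a ratio of 3.99 and a log2 change of 1.97 (SE 0.32, 95% interval 1.22 to 2.73, limma adjusted p = 0.131). At 1448272_at it was 1704 ± 834 (SD, n = 3), a ratio of 4.80 and a log2 change of 2.21 (SE 0.55, 95% interval 0.91 to 3.51, adjusted p = 0.385). Same-numbered control and double-drug cultures deviated together, and with the replicate number as a block 1448272_at was called in limma (adjusted p = 0.0118), higher in 3 of 3 pairs by ratios of 5.53, 4.19 and 4.84. In the same blocked fit 1416250_at was not called (limma adjusted p = 0.0517) and Zfp36 kept its call (adjusted p = 0.00301). The count of called members was then 2, where 0.448% of all probe sets were called.

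Zfp36l1 and Zfp36l2 were nearer to control in the double-drug group. Zfp36l1 had changes of -0.13 (95% interval -0.54 to 0.27) at 1450644_at and -0.24 (95% interval -0.62 to 0.15) at 1422528_a_at. Zfp36l2 had -0.28 (95% interval -0.67 to 0.12) at 1437626_at. All 3 were below control in 3 of 3 same-numbered pairs, and their group values overlapped. Btg1 1437455_a_at was the single member whose double-drug values were all below the controls, where 3.98% of all probe sets were.

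The third comparison tests cytochalasin D alone directly against both drugs together. The first and second comparisons share their control arrays, so this contrast and not their likeness bears on the difference. No member was called in limma (0 of 16), where 0.259% of all probe sets were. At an unadjusted p under 0.05 it was 2 of 16, where it was 4.22% of all probe sets. Zfp36 had the clearest separation, with a ratio of 1.501 and a log2 difference of 0.58 higher with cytochalasin D alone (SE 0.15, 95% interval 0.23 to 0.93, adjusted p = 0.473). Its groups did not overlap, and the ratios by number were 1.44, 1.58 and 1.49. With the replicate number as a block, since same-numbered cultures of these groups deviated together, the Zfp36 difference was called (limma adjusted p = 0.0351). It was then 1 of 16 members, where 0.366% of all probe sets were called.

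For Btg2 the difference between the drug groups was not resolved. At 1416250_at it was 0.64 (SE 0.32, 95% interval -0.12 to 1.39), and cytochalasin D was higher in each pair, by ratios of 1.19, 2.23 and 1.43. At 1448272_at it was 0.19 (SE 0.55, 95% interval -1.11 to 1.49). These intervals hold both no difference and one as large as that of Zfp36.

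The other bright members had differences below 0 in this contrast that were not called. Their cytochalasin D arrays are those of the first comparison, so these values are no separate evidence of a lower level. Zfp36l1 was -0.39 (95% interval -0.79 to 0.01) at 1450644_at and -0.44 (95% interval -0.83 to -0.06) at 1422528_a_at, and the latter had no overlap between groups. Zfp36l2 was -0.36 (95% interval -0.75 to 0.04) and Tob1 -0.49 (95% interval -1.02 to 0.03). Tob2 was -0.37 (95% interval -0.78 to 0.04) at 1448667_x_at. None of these 5 probe sets passed in limma (adjusted p = 0.9995 for each). Over the members, 2 probe sets were higher without overlap (Zfp36 and Btg2 1416250_at) and 1 lower, where 2.92% and 3.33% of all probe sets were.

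**Figure D4:**
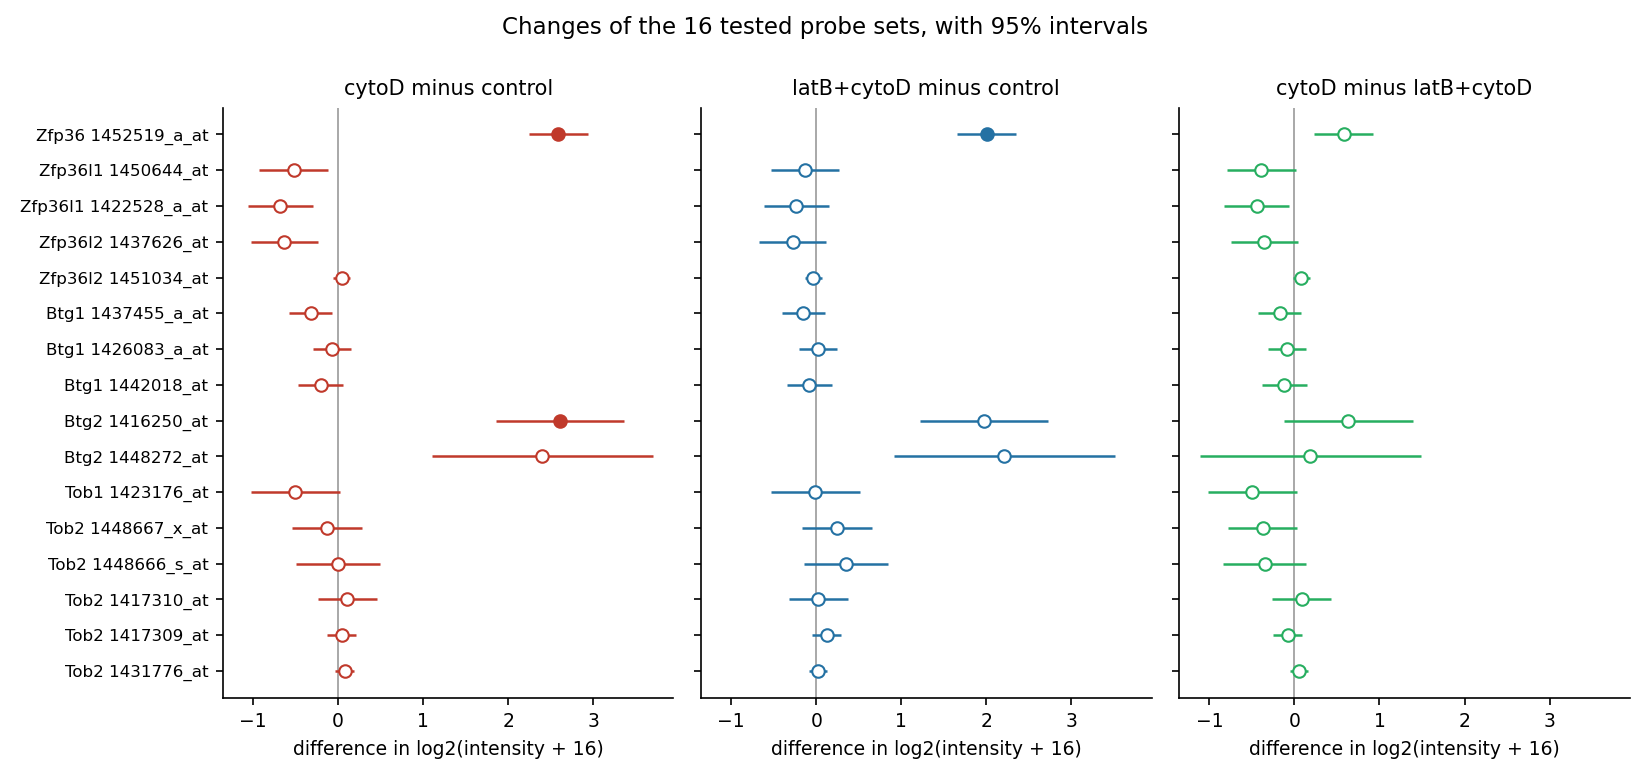
Differences in log2(intensity + 16) of the 16 tested member probe sets in the 3 comparisons, with 95% intervals from limma over all 9 arrays. Filled symbols passed at an adjusted p under 0.05: Zfp36 and Btg2 1416250_at in the first comparison and Zfp36 in the second, and none in the third. Members other than Zfp36 and Btg2 lie between -0.68 and 0.35.

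The replicate number moved with the level of several members. The tested member probe sets with a mean intensity over 200 numbered 11. Number 1 was the lowest of its group, or level with the lowest, in all 3 groups for 8 of them. Number 7 was the highest in all 3 for 6. The 8 were Zfp36l1 1450644_at, Zfp36l2 1437626_at, both bright Btg1 probe sets, Btg2 1448272_at, Tob1, and Tob2 1448667_x_at and 1448666_s_at. For Tob1, numbers 1 and 3 were level in the double-drug group. Over all tested probe sets, the number 1 arrays of the 3 groups also deviated together from their group means (correlations 0.710 to 0.834). The pattern is thus not particular to the members, and the share of all probe sets that show it was not counted. The part of culture or array handling in this was not tested.

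Across the 9 arrays, Zfp36 and Btg2 moved together, as Pearson correlations of log2(intensity + 16) describe. The other members correlated with one another, and ran against that pair to unlike degrees or, for Tob2, hardly at all. Each gene stands with its tested probe set of highest mean, which is 1416250_at for Btg2, and the other Btg2 probe set was not used. The points share groups and replicate numbers, so no p is given. Zfp36 and Btg2 had r = 0.95. Zfp36l1 with Zfp36l2 had 0.96, Zfp36l2 with Btg1 0.97, and Zfp36l1 with Tob1 0.94. Zfp36 with Zfp36l2 had -0.72, and Btg2 with Zfp36l2 -0.82. With Zfp36 and Btg2 in turn, Btg1 had -0.68 and -0.76, Zfp36l1 -0.58 and -0.72, and Tob1 -0.40 and -0.51. Tob2 correlated with Tob1 (0.87) and hardly with Zfp36 (0.04) or Btg2 (-0.11).

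Each member was set against 11863 other genes over the 9 arrays, and the 3 with the highest r are named. For Zfp36 they were Ccn1, a matricellular protein (0.995), Tubb6, a beta-tubulin (0.991), and Srf (0.985). Ccn1 had 2754 ± 295 in controls, 11555 ± 1017 with cytochalasin D and 8950 ± 782 with both drugs (SD, n = 3). For Btg2 they were the immediate-early genes Ier2 (0.983) and Junb (0.971), and Glipr1 (0.973). Ier2 had 1214 ± 189, 5331 ± 132 and 4068 ± 526 in the same order (SD, n = 3), the order of Btg2. For Zfp36l2 they were Zfp141 (0.980), Pnrc2, a nuclear receptor coactivator that also acts in decapping (0.978), and Btg1 (0.972). For Btg1 they were Zfp36l2, Zfp956 (0.972) and Rnf14 (0.964), and for Zfp36l1 Nanp (0.977), Actr6 (0.973) and Pja1 (0.968). For Tob1 they were Ltbp3 (0.975), Uba3 (0.964) and Paics (0.957), and for Tob2 Zfp948 (0.975), Zfp317 (0.958) and Zfp983 (0.955).

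The machinery that these proteins recruit was measured with lists of its genes, taking the brightest tested probe set of each. Of 19 tested genes of the CCR4-NOT complex, other deadenylases and poly(A)-binding proteins, 0 were called in limma in any of the 3 comparisons, and 3 had an unadjusted p under 0.05 with cytochalasin D against control, where 10.2% of all probe sets did. The median change with cytochalasin D was 0.02, against -0.0044 over all genes tested. Noct, a deadenylase-like gene with a daily rhythm, had the largest difference among those named, from 256 ± 79.0 in controls to 568 ± 224 with cytochalasin D (SD, n = 3), and was not called (log2 change 1.08, limma adjusted p = 0.362). Of 33 tested genes of decapping and of the exonucleases and exosome, 0 were called in any comparison in limma, and 4 had an unadjusted p under 0.05 with cytochalasin D, against the same 10.2%. Their median change was -0.0022. Lsm14a, a P-body protein, had -0.26 with cytochalasin D (adjusted p = 0.216).

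Of 19 tested genes of other RNA-binding proteins that act on AU-rich or stem-loop elements, 0 were called in limma as well. At an unadjusted p under 0.05 there was 1 with cytochalasin D, where 10.2% of all probe sets were, and 5 with both drugs against control, where 5.27% were. The median change was -0.03 with cytochalasin D and 0.09 with both drugs, with 14 of 19 above 0 in the latter. Elavl1, the stabilizing AU-rich element binder HuR, had a change of 0.12 with cytochalasin D (adjusted p = 0.515). Zc3h12a, the endonuclease regnase-1, had 44.8 ± 15.97 in controls, 93.3 ± 26.6 with cytochalasin D and 90.5 ± 23.5 with both drugs (SD, n = 3). Its changes of 0.86 and 0.82 were not called in limma (adjusted p = 0.298 and 0.701), and both were with the replicate number as a block (adjusted p = 0.00865 and 0.0346), although the numbers pair by the rule used only in the latter comparison. Of 15 kinases, phosphatases and 14-3-3 partners that set ZFP36 activity, 0 were called in limma in any comparison, 2 had an unadjusted p under 0.05 with cytochalasin D (10.2% of all probe sets), and the median change was 0.06. Mapkapk2, the kinase that inactivates ZFP36, had 0.45 (adjusted p = 0.417) and Dusp1, a phosphatase of its activator p38, 0.42 (adjusted p = 0.308) with cytochalasin D.

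Transcripts known as targets of the ZFP36 proteins moved in both directions. Of 19 tested, 1 rose (Ptgs2), 1 fell (Ccl2) and 17 were not called with cytochalasin D, and 0 were called in limma in the other 2 comparisons. At an unadjusted p under 0.05 there were 10 with cytochalasin D, 5 with both drugs against control and 3 in the direct contrast, where 10.2%, 5.27% and 4.22% of all probe sets were. These shares cover all tested probe sets, dim ones included, while the list takes the brightest of each gene. The list was also chosen with earlier results of these data known. The median change with cytochalasin D was -0.04, with 7 of 19 above 0 and 12 below. Ccl2, a monocyte chemokine, had 2534 ± 454 in controls, 725 ± 141 with cytochalasin D and 1227 ± 219 with both drugs (SD, n = 3), and its log2 change with cytochalasin D was -1.79 (SE 0.20, limma adjusted p = 0.00864). Ptgs2, cyclooxygenase 2, had 4266 ± 603, 11315 ± 2014 and 8500.2 ± 1090 in the same order (SD, n = 3), a change of 1.40 (SE 0.16, adjusted p = 0.00993 in limma). Leaving out control 3 ended that call (limma adjusted p = 0.0540). With both drugs its change of 0.99 (limma adjusted p = 0.141) was called with the replicate number as a block (adjusted p = 0.0293). Fos, which is both an immediate-early gene and a ZFP36 target, had 2.12 with cytochalasin D (adjusted p = 0.130), and Hif1a, the hypoxia-inducible transcription factor, 0.35 (adjusted p = 0.0886). Of the near relatives outside the rule, Zfp36l3 and Btg4, 1 had a probe set and it did not pass the filter.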

How the data were processed

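The deposited table of the 9 arrays of NIH 3T3 RNA holds intensities on a linear scale that the authors had normalized. MAS5 and GCRMA are both named in the submitters' processing notes, and which of them gave these values is not given in the sources used here. Names came from the platform annotation, updated by gene identifier with a RefSeq table. Control probe sets (64) were left out. Tested probe sets exceeded the 40th percentile of at least 3 arrays, each by its own array. Values were taken as log2(intensity + 16) and fitted in limma 3.58.1 (R 4.3.3; lmFit, eBayes) with all 9 arrays and 1 coefficient per group, two-sided, with Benjamini-Hochberg adjustment over 27034 probe sets. The fit was tested on simulated data. The number of arrays limits the precision. No 2 arrays were identical.

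Members and lists were chosen with earlier results of these data known. Named genes were all members, Srf, the 3 genes most like each member, and, from the lists, genes that passed and some of the up to 4 per list with the smallest adjusted p. Lists covered CCR4-NOT and deadenylases, decapping and exonucleases, other RNA-binding proteins, ZFP36 partners, ZFP36 targets, near relatives and cell type markers. The alternatives were other pseudocounts, no filter, quantile normalization, an intensity trend, the 6 arrays compared, the replicate number as a block, and each array left out. Same-numbered arrays pair where every correlation of deviations from the group means is over 0.1. This held for double-drug with control (0.413 to 0.834) and with cytochalasin D (0.411 to 0.756), and not for cytochalasin D with control (0.0762 to 0.710). Blocked values of this last comparison are therefore given only for Zc3h12a and among the alternatives, where the lack of pairing is stated.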

Additional observations from a re-analysis of the deposited data

How the results depend on the processing

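Over the alternatives run, limma gave Zfp36 its call with cytochalasin D in every setting (adjusted p 0.000310 to 0.0197). The member count in that comparison was 2, moved to 5 (3 higher, 2 lower) with the replicate block, and ran from 1 to 2 with 1 array left out, being 1 without control replicate 7 or cytochalasin D replicate 3. The share of all probe sets called was 1.56%, and 3.86% with that block (2.32% higher, 1.55% lower). These shares are also the background of the list counts below. The blocked additions were Btg2 1448272_at (adjusted p = 0.00350), Zfp36l1 1450644_at (0.00798) and Zfp36l2 1437626_at (0.0230); these numbers do not pair by the rule used, and control 3 correlated better with cytochalasin D 7 (0.391) than with its own number (0.0762). For both drugs against control the count was 1, and became 0 with only the 6 arrays compared (Zfp36 adjusted p = 0.147) and 2 with the replicate block, and ran from 0 to 1 with 1 array left out. For cytochalasin D against both drugs it was 0, and 1 with the block. Taking only the brightest probe set of each gene changed no member count. The 2 calls among ZFP36 targets with cytochalasin D became 6 with the block, 1 without control replicate 3, and 0 with only the 6 arrays (adjusted p = 0.0535 for Ccl2 and 0.0694 for Ptgs2). The other lists had 0 calls in that comparison, and 1 each with the block for CCR4-NOT and deadenylases (Noct, adjusted p = 0.0141), decapping and exonucleases (Lsm14a, 0.0233) and other RNA-binding proteins (Zc3h12a, 0.00865). Decapping and exonucleases also had 1 without cytochalasin D replicate 1 (Exosc1, named after its values were seen).

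Over all probe sets, the first comparison had 423 calls, 159 with only the 6 arrays, 1044 with the block, and 230 to 487 with 1 array left out. It moved past 1.5 times, to 235, 243, 230 and 276, without control replicate 3, control replicate 7, cytochalasin D replicate 3 and double-drug replicate 3. The second had 30, and 14 with pseudocount 64, 8 with no filter, 15 with quantile normalization, 48 with an intensity trend, 1 with the 6 arrays, 121 with the block, and 0 to 42 with 1 array left out. It was 1 and 4 without control replicates 3 and 7, 1, 2 and 16 without cytochalasin D replicates 1, 3 and 7, and 1, 0 and 0 without the same double-drug replicates. The third had 70, and 16 with no filter, 9 with the 6 arrays, and 3 to 59 with 1 array left out. It was 11 and 31 without control replicates 3 and 7, 43, 24 and 27 without cytochalasin D replicates 1, 3 and 7, and 5, 3 and 4 without the same double-drug replicates. Without a filter more probe sets are adjusted for, and with 6 arrays fewer samples set the spread; the cause of the other moves was not tested.

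Changes that were not called and turned their sign are the following. Tob2 1448666_s_at (-0.00018 with cytochalasin D) was 0.00037 with pseudocount 64, and -0.169 to 0.136 with 1 array left out. With 1 array left out, the ranges with cytochalasin D were -0.124 to 0.0227 for Btg1 1426083_a_at, -0.269 to 0.0379 for Tob2 1448667_x_at, -0.00073 to 0.162 for Tob2 1417310_at and -0.0012 to 0.0668 for Tob2 1417309_at. With both drugs against control they were -0.0285 to 0.0757 for Btg1 1426083_a_at, -0.120 to 0.102 for Tob1, -0.119 to 0.150 for Tob2 1417310_at, -0.0031 to 0.0339 for Tob2 1431776_at and -0.0472 to 0.0222 for Lsm14a. For cytochalasin D against both drugs they were -0.145 to 0.0017 for Btg1 1426083_a_at, -0.293 to 0.560 for Btg2 1448272_at, -0.0429 to 0.227 for Tob2 1417310_at and -0.155 to 0.188 for Zc3h12a. Srf (1418255_s_at) lost its call with both drugs without any 1 of the 9 arrays (adjusted p 0.0592 to 0.187). Probe sets near the filter level (6.15 to 6.34) have little room to fall, so a decrease there would be hard to see.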
